A study of Mus musculus with 6 samples.

Results

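The immunity-related GTPases (IRGs) described here are 7 genes, Iigp1, Irgm1, Irgm2, Igtp, Ifi47, Tgtp1 and Tgtp2, taken as the rows of the deposited table that carry these symbols, out of 22475 genes in all. All 7 had counts in every library and passed the filter on low counts, along with 13217 genes in total. RNA was sequenced from Lin- cKit+ Sca1+ cells sorted from mouse bone marrow, a gate rich in haematopoietic stem and progenitor cells. The KO group carried a homozygous deletion of miR-155 together with homozygous FLT3-ITD, a tandem duplication inside the cytokine receptor FLT3 by which it signals without its ligand. The FLT3-ITD group was homozygous for the same FLT3-ITD mutation and wild type for miR-155, so every mouse carried the activated receptor and no mouse had wild-type Flt3. There were 3 libraries per group, and RNA from 3 mice was combined in each of them, so that differences between single mice cannot be seen. The sources used here give no age, sex or strain and do not say how the FLT3-ITD or miR-155 alleles were made. Totals lay between 6843129 and 7601317 counts in the KO libraries and between 8136914 and 9443615 in the FLT3-ITD libraries.

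IRGs are GTPases that mouse cells make in response to interferons, most strongly to interferon-gamma, and that attack the membrane of vacuoles in which parasites and bacteria live. They fall into effectors, which coat and disrupt the vacuole (Iigp1, also called Irga6; Ifi47, also called Irgd; and the Irgb6 pair Tgtp1 and Tgtp2), and regulators, which sit on the cell's own membranes and hold the effectors in the inactive state (Irgm1, Irgm2, and Igtp, also called Irgm3). In mice Irgm1 is also known to be needed for the normal function of haematopoietic stem cells under inflammation. The comparison addresses which of these genes differ in FLT3-ITD progenitors when miR-155 is missing.

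The promoters of the family are shown first, since the members shared a direction and interferon-induced genes are switched on through short elements near their start. Of the 7 members, 6 matched a RefSeq promoter (GRCm38.p6, 250 bases before to 50 bases after the start). The member without a match was Iigp1, so its promoter was not searched and nothing below describes it. The letters GAAA followed, after any 2 bases, by another GAAA, the core of the interferon-stimulated response element (ISRE), and TTCNNNGAA, the gamma-activated site (GAS), were searched on both strands. The ISRE core was present in 5 of 6 members, against 3.44% of all 32851 promoters, and the GAS letters in 4 of 6, against 8.30%. In 4 of 6 members the GAS stood directly before the ISRE core on the same strand, with starts at most 12 bases apart, against 31 of all promoters (0.0944%). Igtp and Irgm2 have nearly the same letters around these matches, and so do Tgtp1 and Tgtp2, so the 4 are not separate cases. The members are also counted among all promoters. The 60-base windows around these matches are given here 5′ to 3′ on the gene's strand, with the letters of both motifs in capitals.
Igtp, chr11:58199497-58199556, plus strand: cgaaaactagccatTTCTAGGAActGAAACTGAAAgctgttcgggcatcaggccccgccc
Irgm2, chr11:58214888-58214947, plus strand: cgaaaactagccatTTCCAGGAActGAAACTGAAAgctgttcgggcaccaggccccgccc
Tgtp1, chr11:48992289-48992348, minus strand: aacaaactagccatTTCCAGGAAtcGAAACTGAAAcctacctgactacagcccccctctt
Tgtp2, chr11:49064248-49064307, minus strand: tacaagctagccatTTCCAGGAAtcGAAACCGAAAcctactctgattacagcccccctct
Irgm1, chr11:48871416-48871475, minus strand: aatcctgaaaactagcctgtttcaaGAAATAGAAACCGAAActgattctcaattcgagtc
The ISRE core began 34 bases before the start in Igtp, 64 in Irgm2, 77 in Tgtp1 and 70 in Tgtp2. In Irgm1 a pair of overlapping ISRE matches began 30 and 24 bases before the start, and no GAS match was found in its window. The Ifi47 window held neither set of letters, which says only that they are not in that stretch. A match is a description of the letters and not a measured binding site.

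**Figure D1:**
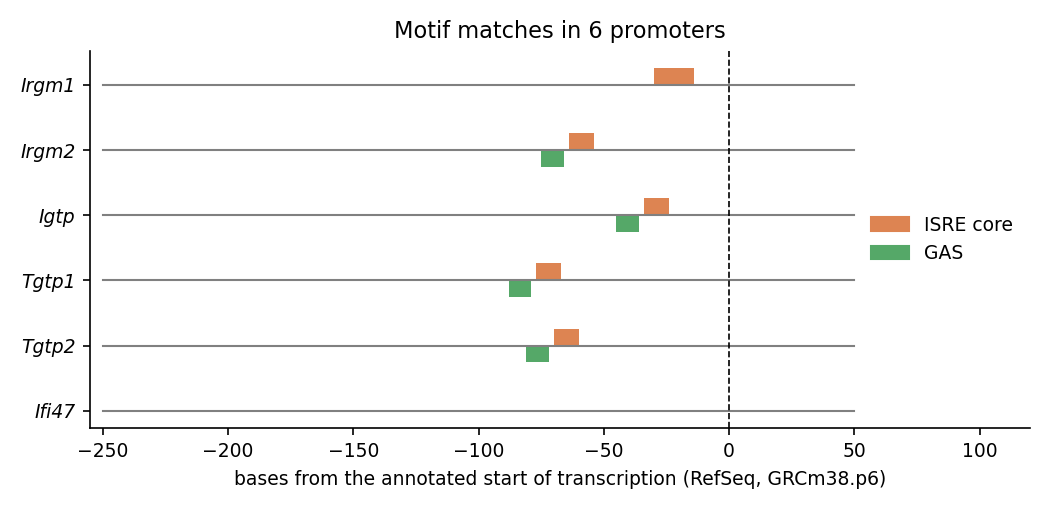
Positions of ISRE core and GAS letters in the RefSeq promoters of 6 members, in bases from the annotated start of transcription (dashed line); each grey line is 1 promoter from 250 bases before to 50 bases after the start. In Irgm2, Igtp, Tgtp1 and Tgtp2 the GAS (green) directly precedes the ISRE core (orange), Irgm1 has ISRE matches without GAS, and Ifi47 has neither.

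The microRNA that the KO mice lack is shown because its targets are recognised through its seed, given in capitals (bases 2 to 8).
mmu-miR-155-5p, chr16:84714143-84714165, plus strand: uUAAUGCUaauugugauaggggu
Its seed match, AGCATTA, occurred in the longest annotated 3′ UTR of 0 of 7 members, whose lengths ran from 307 bases in Ifi47 to 2113 bases in Irgm2. Among 11796 tested genes with an annotated 3′ UTR, 1163 (9.86%) held the match.

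Levels per length of the gene model are given as the authors' FPKM, which allow genes to be set beside each other. In the KO libraries Ifi47 was highest at 58.9 ± 1.43 FPKM, followed by Igtp at 37.3 ± 1.15 and Iigp1 at 30.4 ± 2.87 (SD, n = 3 each). Irgm1 followed at 26.2 ± 3.94, Irgm2 at 14.8 ± 1.70, Tgtp2 at 9.18 ± 1.16 and Tgtp1 at 5.37 ± 1.72 FPKM (SD, n = 3 each). Of neighbours in this order, only Iigp1 and Irgm1 overlapped in the KO libraries. In the FLT3-ITD libraries the order was Ifi47 at 44.3 ± 5.13, Igtp at 30.9 ± 3.51, Irgm1 at 18.8 ± 1.24 and Iigp1 at 15.99 ± 1.67 FPKM (SD, n = 3 each). Irgm2 at 11.9 ± 2.18, Tgtp2 at 6.37 ± 0.97 and Tgtp1 at 4.47 ± 1.25 FPKM came after them (SD, n = 3 each). Irgm1 overlapped Iigp1 there, Tgtp2 overlapped Tgtp1, and the other neighbours did not overlap. The order thus differed at 1 place: Iigp1 stood above Irgm1 in the KO libraries and below it in the FLT3-ITD libraries. Iigp1 made up 16.7% ± 1.34 of the summed FPKM of the 7 genes in the KO libraries and 12.03% ± 0.66 in the FLT3-ITD libraries (SD, n = 3 each).

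**Figure D2:**
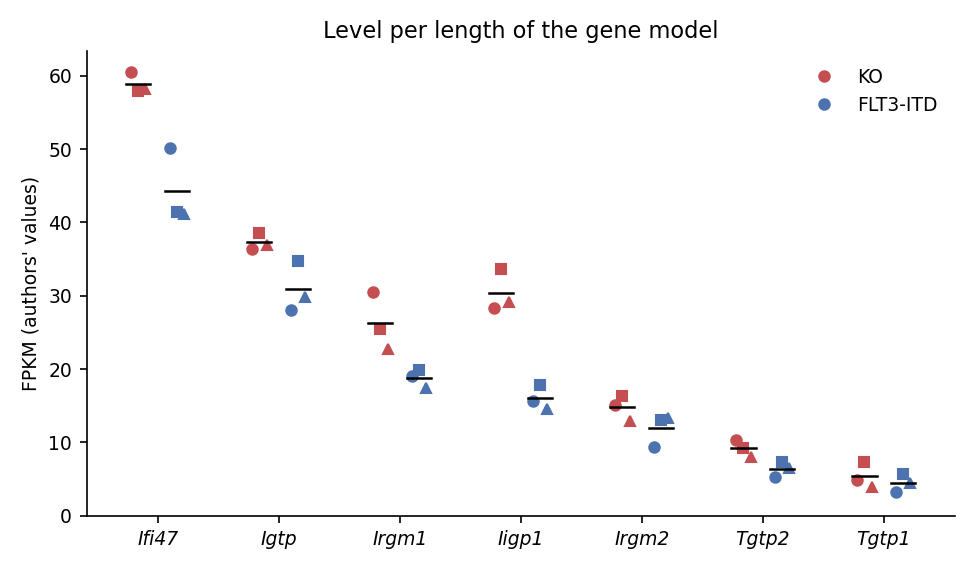
Authors' FPKM of each member in each library (circle, square and triangle for replicate numbers 1, 2 and 3; black bar, group mean of 3), with KO in red left of FLT3-ITD in blue. Ifi47 and Igtp are the 2 most abundant members per length in both groups, and the Iigp1 means are 30.4 FPKM in KO and 15.99 FPKM in FLT3-ITD libraries, with no overlap.

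Across the members the RNA was higher without miR-155, and Iigp1 was the member that passed the test over all genes. All 7 members had a positive log2 fold change (KO over FLT3-ITD), from 0.27 in Tgtp1 to 0.93 in Iigp1, with a median of 0.41. Over all 13217 genes tested, 50.2% were positive and the median was 0.00096. In edgeR's quasi-likelihood test with Benjamini-Hochberg adjustment over all genes, 1 of 7 members rose and none fell. Of all genes tested 2 rose (0.0151%), and 21 changed in either direction (0.159%). The KO and FLT3-ITD libraries did not overlap in 5 of 7 members (Iigp1, Irgm1, Igtp, Ifi47 and Tgtp2), each higher in the KO, against 3.43% of all genes tested. An unadjusted p under 0.05 with a higher level in the KO was likewise found for 5 of 7 members, against 1.41% of all genes. Within pairs of equal replicate number, 5 of 7 members were higher in the KO in all 3 pairs, against 15.1% of all genes. The 7 members are not fully separate measurements, since reads of Tgtp1 and Tgtp2, and of Igtp and Irgm2, may be shared. Counted together, Tgtp1 and Tgtp2 overlapped between the groups. The members' summed CPM (counts relative to the library size, scaled between libraries by TMM) was 607, 559 and 508 in the KO libraries and 402, 418 and 381 in the FLT3-ITD libraries. In these mixed RNA samples, more cells that express a gene and more RNA per cell cannot be told apart.

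**Figure D3:**
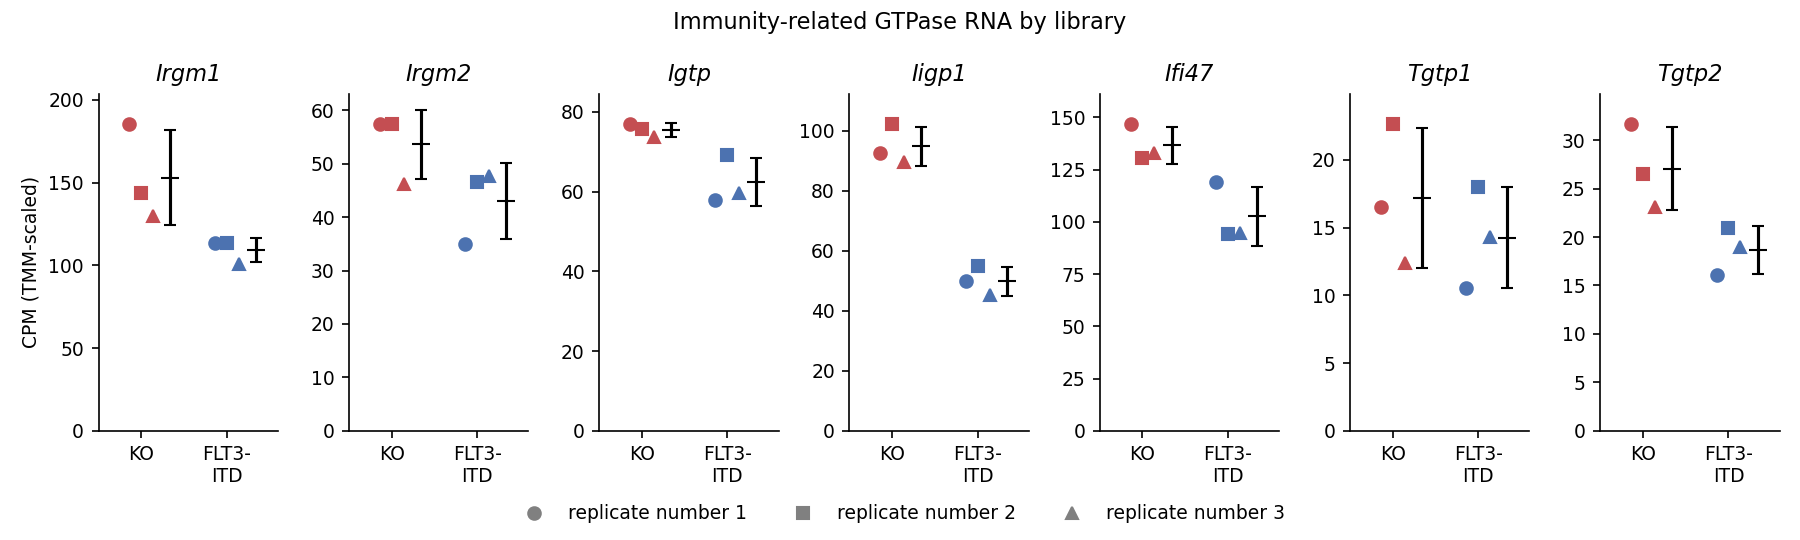
CPM of each member in each library, with replicate numbers 1, 2 and 3 as circles, squares and triangles and the group mean ± SD (n = 3) as black bars; KO libraries are left of FLT3-ITD libraries and each axis starts at 0. The groups are apart for Irgm1, Igtp, Iigp1, Ifi47 and Tgtp2 and overlap for Irgm2 and Tgtp1.

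Iigp1, an effector GTPase that coats the parasite vacuole, was the member that rose. Its level was 92.5, 102 and 89.7 CPM in KO replicates 1, 2 and 3, against 49.8, 54.8 and 45.1 CPM in FLT3-ITD replicates 1, 2 and 3. Every KO library lay above every FLT3-ITD library, with a gap from 54.8 to 89.7 CPM that is wider than the range of either group. The counts behind these levels were 605, 799 and 652 in the KO libraries and 459, 478 and 370 in the FLT3-ITD libraries. Iigp1 rose by 0.93 ± 0.10 on the log2 scale (SE; edgeR adjusted p 0.0339), which is 1.90-fold, and it ranked 13th by p-value among all genes tested. The differences within the pairs of equal replicate number were 0.89, 0.90 and 0.99. With the replicate number as a block the adjusted p was 0.00192 in edgeR, and the authors' deposited table gives a log2 fold change of 0.93 with an adjusted p of 1.85e-08, the only member below 0.05 there (0.0422% of all genes in that table were called higher). Leaving out any 1 library kept the change between 0.86 and 1.00 while the adjusted p in edgeR lay between 0.0567 and 0.165, so that none of these 6 smaller fits called it. The gene lies on chromosome 18 (60376027 to 60392634, plus strand, GRCm38), apart from the other members.

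Relative to the rest of the family, Iigp1 was higher in every KO library than in any FLT3-ITD library. Its CPM was 17.98%, 22.4% and 21.4% of the summed CPM of the other 6 members in KO replicates 1, 2 and 3, and 14.1%, 15.1% and 13.4% in FLT3-ITD replicates 1, 2 and 3. This ratio is taken within each library and does not depend on library scaling. The difference was 0.53 on the log2 scale. A two-sided exact permutation test gave p = 0.1, which is the smallest p that 3 against 3 libraries allow. The ratio was formed for the member with the largest log2 fold change in these same libraries. A higher mean ratio in the KO group followed from that choice. The permutation test therefore gives no independent evidence that Iigp1 differs from the other members.

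The regulators had smaller differences than Iigp1, and none passed in edgeR. Irgm1 (chromosome 11, 48861968 to 48871683) had 185, 144 and 130 CPM in KO replicates 1, 2 and 3, against 113, 114 and 101 CPM in FLT3-ITD replicates 1, 2 and 3. The groups did not overlap, and KO replicate 1 stood above the other KO libraries. The log2 difference was 0.49 ± 0.14 (SE; adjusted p 0.625 in edgeR, 0.0710 with the replicate block), and 0.33 without KO replicate 1. DESeq2 with the replicate block called it (adjusted p 0.0296). Igtp (chromosome 11, 58199556 to 58207591), a regulator found on the endoplasmic reticulum and lipid droplets, had 76.9, 75.8 and 73.6 CPM in the KO libraries, against 58.0, 69.2 and 59.7 CPM in the FLT3-ITD libraries. Its KO values lay within a narrow range and above all FLT3-ITD values, with a log2 fold change of 0.28 and an SE of 0.10 (edgeR adjusted p 0.975). Irgm2 (chromosome 11, 58199618 to 58222782), a regulator at the Golgi, had 57.3, 57.4 and 46.2 CPM in the KO libraries and 34.9, 46.6 and 47.7 CPM in the FLT3-ITD libraries. Those groups overlapped, with KO replicate 3 below FLT3-ITD replicates 2 and 3, and the log2 fold change was 0.32 ± 0.15 (SE; adjusted p 0.9995 in edgeR). The annotated spans of Igtp and Irgm2 overlap by 7974 bases on the same strand, and 243 of the 2064 distinct 50-base words of Igtp transcripts (11.8%) also occur in Irgm2, so part of their reads may have been assigned to either.

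Of the other effectors, Ifi47 passed once replicate numbers were taken as pairs. Ifi47 (chromosome 11, 49076587 to 49096974) had 147, 130 and 133 CPM in KO replicates 1, 2 and 3, against 119, 94.4 and 94.6 CPM in FLT3-ITD replicates 1, 2 and 3. The groups did not overlap, and replicate 1 was the highest library of each group. Its log2 fold change was 0.41 ± 0.11 (SE; adjusted p 0.569 in edgeR), and with the replicate block it rose by 0.42 ± 0.07 (SE; adjusted p 0.0430). With that block 2 of 7 members rose, against 0.318% of all genes. DESeq2 with the block called 3 of 7 members (Iigp1, Irgm1 and Ifi47; 0.34% of all genes were called higher), and DESeq2 without it called Iigp1 alone (0.053%).

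Tgtp2 and Tgtp1, which encode the T-cell-specific GTPase Irgb6, a vacuole-binding effector, were the 2 lowest members and cannot be counted apart with certainty. Of the distinct 50-base words of Tgtp1 transcripts 79.4% also occur in Tgtp2, and 85.8% of those of Tgtp2 occur in Tgtp1. Tgtp2 (chromosome 11, 49057194 to 49064206) had 31.7, 26.5 and 23.1 CPM in the KO libraries and 16.04, 20.97 and 19.0 CPM in the FLT3-ITD libraries. Its groups did not overlap, and the log2 fold change was 0.53 ± 0.16 (SE; adjusted p 0.748 in edgeR). Tgtp1 (chromosome 11, 48985327 to 48994172) had 16.5, 22.6 and 12.4 CPM in the KO libraries and 10.5, 17.99 and 14.3 CPM in the FLT3-ITD libraries. Its log2 fold change, 0.27 with an SE of 0.28 (edgeR adjusted p 0.9995), became 0.014 without KO replicate 2. The Tgtp1 groups overlapped, and replicate 2 was the highest library of each group. Counted together the pair had 48.2, 49.1 and 35.5 CPM in the KO libraries and 26.6, 39.0 and 33.3 CPM in the FLT3-ITD libraries. The groups then overlapped, and the log2 fold change of the sum was 0.43 ± 0.18 (SE; adjusted p 0.9995 in edgeR). Without both libraries of number 1, the values of Tgtp2 and Tgtp1 were 0.31 and 0.12.

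**Figure D4:**
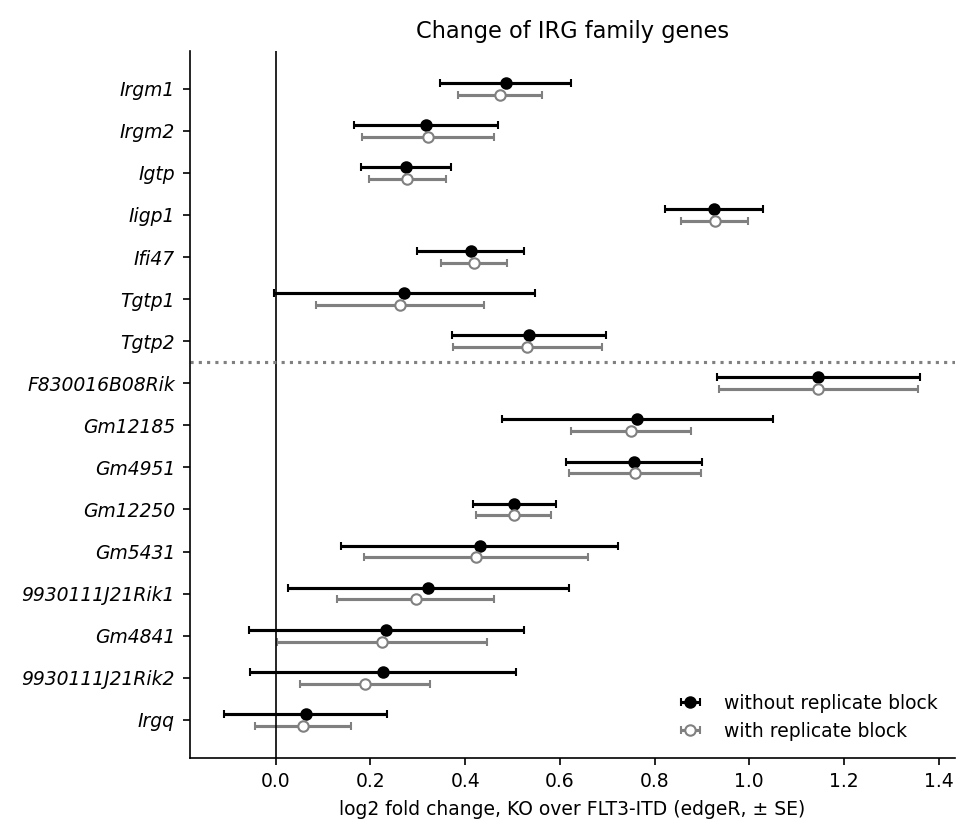
Log2 fold change, KO over FLT3-ITD, with its standard error for the 7 members (above the dotted line) and 9 other IRG family genes (below it), from edgeR without (filled) and with (open) the replicate block. All 16 estimates lie above 0, Iigp1 and F830016B08Rik have the highest values, 0.93 and 1.15, and Irgq the lowest, 0.06.

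Estimates for the other genes of the IRG family were positive, although most of their groups overlapped. Of the 11 that had a row, 9 were tested, and their median log2 fold change was 0.43. All 9 were positive, against 50.2% of all genes tested. In 3 the groups did not overlap, each higher in the KO, against 3.43% of all genes. None passed in edgeR, where 4 had an unadjusted p under 0.05 with a higher level in the KO, against 1.41% of all genes. With the replicate block 2 rose, Gm12250 and Gm12185, against 0.318% of all genes. Gm12250, which encodes the effector Irgb10 that acts on bacterial membranes, had 77.7, 82.7 and 72.1 CPM in the KO libraries and 56.3, 53.3 and 54.4 CPM in the FLT3-ITD libraries. The groups did not overlap, and its log2 fold change was 0.50 ± 0.09 (SE; adjusted p 0.146 in edgeR, 0.0368 with the block and 0.00811 in DESeq2 without it). Gm12185, an IRG gene whose span overlaps Tgtp1 by 6900 bases on the same strand, had 20.6, 33.2 and 18.02 CPM in the KO libraries and 11.2, 18.6 and 12.7 CPM in the FLT3-ITD libraries. Its groups overlapped (log2 fold change 0.76 ± 0.29, SE; adjusted p 0.9995 in edgeR and 0.0463 with the block), and DESeq2 did not call it with the block (0.114) or without (0.681). Irgq, a distant relative that interferons are not known to induce, had a value of 0.06 ± 0.17 (SE; adjusted p 0.9995 in edgeR).

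The genes whose levels across libraries were most like those of Iigp1 included its neighbours on chromosome 18. Likeness was measured over the 6 libraries as the root mean square difference of log2 CPM after each gene was centred on its own mean, which makes it a description of genes picked for likeness. The 5 nearest of all genes outside the family members were Gm4951 (0.15), Cxcl10 (0.17), F830016B08Rik (0.18), Gm6767 (0.20) and Gm5970 (0.20). Of these, 3 lie on chromosome 18, which holds 2.30% of the tested genes, and the other two lie on chromosomes 5 and 16. Since Gm5970 (60220843 to 60222058) lies wholly within Gm4951 on the same strand, the 3 genes stand at 2 separate places and reads of that pair may be shared. Gm4951, F830016B08Rik and the pseudogene Gm5970 stand within 154 kb upstream of Iigp1. Gm4951 (chromosome 18, 60212080 to 60247820) had 34.3, 37.8 and 41.7 CPM in the KO libraries and 23.2, 25.4 and 18.7 CPM in the FLT3-ITD libraries. F830016B08Rik (chromosome 18, 60293380 to 60303016) had 6.88, 5.62 and 6.33 CPM in the KO libraries and 3.04, 2.75 and 2.68 CPM in the FLT3-ITD libraries. Both are IRG genes of this cluster, and in both the groups did not overlap. Cxcl10, a chemokine induced by interferons, was the other gene of the whole table that rose in edgeR (1.197 ± 0.13, SE; adjusted p 0.0339). Their log2 fold changes were 0.76 ± 0.14 and 1.15 ± 0.21 (SE), with adjusted p of 0.190 and 0.184 in edgeR. DESeq2 called Gm4951 (adjusted p 0.00673). Gm4841, the remaining IRG gene of the cluster, did not share the pattern by the overlap of its groups, with 3.82, 5.88 and 6.33 CPM in the KO libraries and 3.69, 5.84 and 4.15 CPM in the FLT3-ITD libraries. Its log2 fold change was 0.23 ± 0.29 (SE; adjusted p 0.9995 in edgeR), and its difference from Iigp1 was not tested. Iigp1 transcripts shared 1.47% of their 50-base words with Gm4951 and 0.19% with Gm5970, and none with F830016B08Rik.

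**Figure D5:**
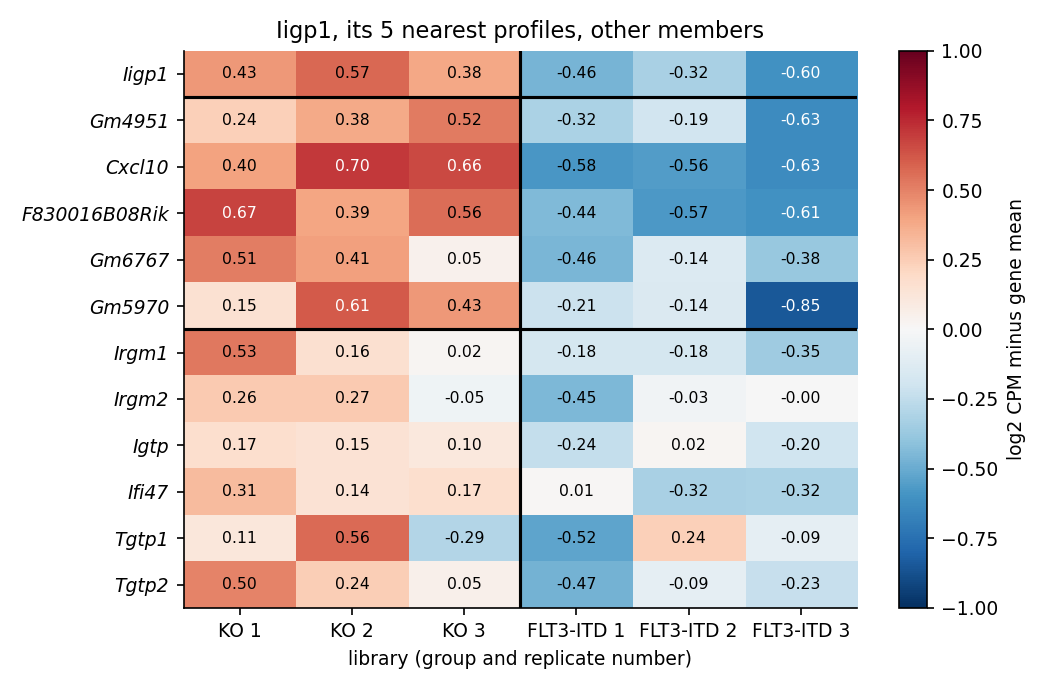
Log2 CPM minus the gene's mean over the 6 libraries, for Iigp1 (top), the 5 genes of nearest profile (middle) and the other 6 members (bottom), with KO libraries left of FLT3-ITD libraries. Iigp1 and its 5 nearest genes are positive in all KO libraries and negative in all FLT3-ITD libraries, whereas among the other members Irgm2, Igtp, Ifi47 and Tgtp1 have at least 1 library on the other side.

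The mean profile of the 7 members, which was less even across KO libraries than that of Iigp1, was most like those of Nod2 (0.063), a bacterial peptidoglycan sensor, and Csf2rb2 (0.065), a cytokine receptor chain. Il12rb2 (0.080), a chain of the interleukin-12 receptor, Nhej1 (0.096), a DNA repair factor, and Zswim3 (0.097) came next. None of these 5 passed in edgeR (adjusted p 0.9995 each). Among the members themselves, Tgtp2 (0.093) and Igtp (0.11) were nearest to the mean profile, and Tgtp1 (0.26) and Iigp1 (0.25) farthest from it.

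Genes upstream of the IRGs had positive but smaller values. Of 10 genes of the interferon-gamma receptor and signalling chain, 8 had a positive log2 fold change, and the median of 0.20 became 0.0067 without KO replicate 1 and 0.074 without both libraries of number 1. None passed in edgeR, where 1 had an unadjusted p under 0.05 with a higher level in the KO, against 1.41% of all genes. That was Irf1, the transcription factor that binds ISRE letters after interferon-gamma, with 177, 213 and 169 CPM in the KO libraries and 124, 155 and 147 CPM in the FLT3-ITD libraries. Its groups did not overlap (0.39 ± 0.12, SE; adjusted p 0.800 in edgeR). The kinase Jak2 had a value of 0.27 ± 0.18 (SE; adjusted p 0.9995 in edgeR). The receptor chains Ifngr1 (0.14) and Ifngr2 (0.13) did not pass.

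In the type I interferon receptor and ISGF3 chain all 8 genes were positive (median 0.35, and 0.12 without KO replicate 1), against 50.2% of all genes. None passed in edgeR, where 2 had an unadjusted p under 0.05 with a higher level in the KO, against 1.41% of all genes. With the replicate block in edgeR 2 rose, against 0.318% of all genes. These were Usp18, a feedback inhibitor of the receptor (0.88, adjusted p 0.00314), and Irf7, a transcription factor that amplifies type I interferon (0.88, adjusted p 0.00477). Usp18 had 92.1, 53.3 and 54.7 CPM in the KO libraries and 50.2, 29.8 and 28.7 CPM in the FLT3-ITD libraries, and Irf7 had 382, 204 and 164 CPM in the KO libraries and 185, 109 and 103 CPM in the FLT3-ITD libraries. For both genes replicate 1 was the highest library of each group, whereas for Iigp1 it was replicate 2. The groups of Usp18 did not overlap and those of Irf7 did. The receptor chain Ifnar1 had a value of 0.24 ± 0.12 (SE; adjusted p 0.9995 in edgeR).

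Guanylate-binding proteins, the larger interferon-induced GTPases that act beside the IRGs at vacuoles, were again all positive (8 tested, median 0.45). None passed in edgeR with or without the block. Without it 2 had an unadjusted p under 0.05 with a higher level in the KO, against 1.41% of all genes. DESeq2 called Gbp6 (adjusted p 0.0240, with 0.053% of all genes called higher). The groups of Gbp6 and Gbp4 did not overlap, while Gbp5 (0.47 ± 0.22, SE; adjusted p 0.9995 in edgeR) overlapped. Gbp6 had 14.4, 16.2 and 12.7 CPM in the KO libraries and 9.11, 5.39 and 5.24 CPM in the FLT3-ITD libraries. Gbp4 had 22.5, 27.6 and 23.4 CPM in the KO libraries and 17.996, 13.98 and 16.3 CPM in the FLT3-ITD libraries.

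Partners of the IRGs in other pathways had medians near that of all genes. The 11 autophagy conjugation genes, whose products are needed for IRGs to load properly onto vacuoles, had a median of 0.014, from -0.11 in Atg12 to 0.19 in Map1lc3a, and none passed in edgeR (0 had an unadjusted p under 0.05). Gabarap, one of the ubiquitin-like proteins that are conjugated to membranes, had a value of 0.10 ± 0.12 (SE; adjusted p 0.9995 in edgeR). The 7 ubiquitin ligases and adaptors had a median of 0.028, and none passed in edgeR. The 1 gene with an unadjusted p under 0.05 was Rnf213, a ligase that is itself interferon-inducible (0.49 ± 0.18, SE; adjusted p 0.9995 in edgeR). Over all genes 1.41% had such an unadjusted p and a higher level in the KO. Trim21 (0.15) and Nbr1 (-0.07) had the next smallest p-values.

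Interferon transcripts themselves were scarce. Ifng, which encodes interferon-gamma, had 6, 16 and 8 counts in the KO libraries and 6, 19 and 10 in the FLT3-ITD libraries, and the groups overlapped. Of the other listed interferon genes with a row, Ifnb1, Ifna2 and Ifna4 had at most 2 counts in any library, which is within the limit of 3 that a count of 0 allows.

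The sorting markers had log2 fold changes of -0.12 (Kit) and 0.11 (Ly6a, which encodes Sca1), and Flt3 of -0.05. None of the 3 passed in edgeR. Among all 9 listed stem and progenitor genes only Ly6a was positive, the median was -0.18, and none passed in edgeR. Markers of other cells were present too. Macrophage markers, 14 of 15 listed names with a row and none at 0 throughout, summed to 860, 292 and 391 CPM in KO replicates 1, 2 and 3 and to 1112, 216 and 249 CPM in FLT3-ITD replicates 1, 2 and 3. Dendritic cell markers (13 of 13) summed to 1688, 1010 and 925 CPM in the KO libraries and to 1119, 1030 and 1074 CPM in the FLT3-ITD libraries. Of these 13 genes 10 had a positive log2 fold change, against 50.2% of all genes, and none passed in edgeR. An unadjusted p under 0.05 with a higher level in the KO was found for 1, Fscn1 (0.94 ± 0.39, SE), against 1.41% of all genes. With the replicate block 2 rose, against 0.318% of all genes. These were Ccr7, a chemokine receptor of migrating dendritic cells (0.85 ± 0.12, SE; adjusted p 0.0199 with the block), and Bst2, which is also interferon-induced (0.42 ± 0.07, SE; adjusted p 0.0475 with the block). Ccr7 had 62.5, 37.7 and 24.6 CPM in the KO libraries and 30.9, 24.98 and 12.7 CPM in the FLT3-ITD libraries, and its groups overlapped. MHC class II genes (7 of 7), which antigen-presenting cells express, summed to 15060, 7338 and 5647 CPM in the KO libraries and 8116, 6730 and 7421 CPM in the FLT3-ITD libraries. The part of such cells in the differences of the members was not tested. KO replicate 1 was the highest library for these last 2 lists and for Irgm1, Ifi47, Tgtp2 and Igtp. Without both libraries of number 1 the log2 fold change of Iigp1 was 0.94 (adjusted p 0.0618 in edgeR), of Ifi47 0.48 and of Irgm1 0.36, while that of Irgm2 was 0.14. B and plasma cell markers (9 of 10) summed to 4864, 3285 and 8819 CPM in the KO libraries and to 12153, 8103 and 15215 CPM in the FLT3-ITD libraries, opposite in direction to the IRGs, and 6 of the 8 tested did not overlap and were lower in the KO, against 4.79% of all genes. None of these 8 passed in edgeR without the replicate block, and with it 5 fell, against 138 of all 13217 genes tested. T and NK cell markers (12 of 12) summed to 85.2, 103 and 93.7 CPM in the KO libraries and to 106, 104 and 90.7 CPM in the FLT3-ITD libraries. Nkg7 alone had a mean of 50.9 CPM in the KO libraries and 53.3 CPM in the FLT3-ITD libraries. Of the 10 tested, 2 had a positive log2 fold change (50.2% of all genes), and the median was -0.24. Cd2 (-1.27 ± 0.34, SE) and Trac (-1.30 ± 0.51, SE) had an unadjusted p under 0.05 in edgeR. In either direction 515 of all 13217 genes had one. None of the 10 passed in edgeR, with adjusted p of 0.513 for Cd2 and 0.9995 for Trac. Neutrophil and monocyte markers (10 of 10) summed to between 1621 and 2132 CPM in the KO libraries and between 1525 and 2238 CPM in the FLT3-ITD libraries, while 7 of the 9 tested did not overlap and were lower in the KO (4.79% of all genes). The erythroid markers (6 of 7) summed to at most 35.2 CPM in a KO library and at most 48.8 CPM in a FLT3-ITD library. None of these markers with a row was at 0 in all libraries.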

How the data were processed

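Whole-number read counts per gene and library were deposited by the authors, with no normalization, for 6 libraries. The authors also deposited FPKM values, which over genes with counts above 100 equalled counts multiplied by gene and library factors (deviation 0.0%), and their own log2 fold change and adjusted p-value per gene. The mm10 build, DESeq2 1.10.1 and Novoalign 2.08.01 are named per the submitters' processing notes; the read counter, annotation and use of strand are not given in the sources used here, so overlapping and near-identical genes are uncertain.

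Counts were tested with edgeR 4.0.16 in R 4.3.3 (TMM, filterByExpr with minimum count 10 and minimum total 15, quasi-likelihood F test of group, two-sided, Benjamini-Hochberg over 13217 genes, threshold 0.05). The SE was derived from the F statistic. DESeq2 1.42.0 and limma-voom (limma 3.58.1) served as alternatives, beside other scalings and filters, a replicate block, and fits without 1 library or without both libraries of a number. FPKM were used for levels only. Profiles used log2 CPM with a prior count of 2. The test was checked on simulated counts drawn without an effect of replicate number. That check cannot show how the test behaves where libraries of equal number deviate together.

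Coordinates, 3′ UTRs and transcripts came from GENCODE M21 (GRCm38, the assembly of mm10), which matched 21966 of 22475 identifiers; promoters and the microRNA came from RefSeq (GRCm38.p6). The named genes are the members, from each list those past the threshold and the 3 with the smallest p, the gate genes Kit, Ly6a and Flt3, and the 5 genes of nearest profile to Iigp1 and to the members' mean; Gm12185, Gm4841, Irgq, Ifngr1, Ifngr2, Fscn1, Ccr7, Bst2 and the interferon genes were added after their values were seen. Not every gene chosen by this rule is reported here. The members and lists were chosen with earlier results of these data known. The labels name separate pools but not separate litters or days. Libraries of equal number deviated together across genes (r = 0.573, 0.526 and 0.219 for numbers 1, 2 and 3, each above 0.1). KO 2 with FLT3-ITD 3, of unlike number, was also above 0.1 (r = 0.133), so the pairing of number 3 is the least clear. The block is given as an alternative where it changed a call among the members or in a list. Precision rests on 3 libraries a group.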

Additional observations from a re-analysis of the deposited data

How the results depend on the processing

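Across 121 recomputed values of the 7 members, none changed direction, 109 kept their side of the threshold, 9 (all of Iigp1) no longer passed and 3 newly passed. Iigp1 ran from 0.86 to 1.00 when 1 library was left out. Without both libraries of number 1, 2 or 3 it was 0.94, 0.93 and 0.90 (edgeR adjusted p 0.0618, 0.168 and 0.216), with fewer samples in each fit. The values that newly passed were those of Ifi47 with the replicate block (0.42), of Ifi47 under DESeq2 plus the block (0.42) and of Irgm1 under DESeq2 plus the block (0.47). The number of members called, 1, became 2 with the replicate block, 3 with DESeq2 and the block, and 0 without both libraries of any number or without any 1 library (0 to 0; 3 to 6 members had an unadjusted p under 0.05 in edgeR). The number of genes called, 21, became 127 with DESeq2, 97 without a low-count filter, 180 with the replicate block, 197 with DESeq2 and the block, 32 at a threshold of 0.1, 10 and 6 without both libraries of number 2 or 3, and 0 to 27 without 1 library. The causes were not tested. Among the other IRG genes, where none was called, 2 were called with the replicate block (Gm12250 and Gm12185) and 2 with DESeq2 with or without the block (Gm12250 and Gm4951). In the type I interferon chain 2 were called with the block and 2 with DESeq2 and the block, and 1 without both libraries of number 1. DESeq2 called 1 guanylate-binding protein, or 2 with the block. DESeq2 with the block, chosen after seeing the data, also called 1 gene each of the interferon-gamma chain and of the ubiquitin ligases. No further member's call depended on the block. The log2 difference in the ratio of Iigp1 to the other members stayed between 0.47 and 0.63 (exact p = 0.1 each). As a paired difference with the replicate block it was 0.53 (exact p = 0.25, the smallest that 3 pairs allow). The ratio was formed for the member with the largest change in the same data, so these tests give no independent evidence either. Of 102 medians of the 6 lists 1 fell below 0, for autophagy genes, and 97 stayed within the spread of the 3 pairs. Tgtp1 ran from 0.014 to 0.48 when 1 library was left out, at 90 to 177 counts per library.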

Other observations

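In both groups replicate 2 was the highest library for Iigp1, for Tgtp1, for Gm12185, whose span overlaps it, and for Gbp2, a guanylate-binding protein. These genes were picked after their values were seen. Gbp2 had 48.8, 175 and 99.98 CPM in KO replicates 1, 2 and 3 and 40.8, 84.8 and 62.4 CPM in FLT3-ITD replicates 1, 2 and 3, whereas Usp18 and Irf7 were highest in replicate 1 of both groups. Replicate 2 was the highest library of both groups for 16.6% of all genes tested, and replicate 1 for 21.8%. For Gbp2 edgeR gave 0.79 ± 0.45 on the log2 scale (SE; adjusted p 0.9995), and 0.69 ± 0.14 with the replicate block (SE; adjusted p 0.0904). DESeq2 with the block called it (0.67, adjusted p 0.0110), and DESeq2 without the block did not.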
